A study of Mus musculus with 16 samples.

Results

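The transcriptomes of 3B3l and J1 mouse embryonic stem cells (mESCs) in serum were compared, array by array. The groups were taken from the sample titles, which gave 2 arrays of 3B3l-serum and 4 of J1-serum, 6 of the 16 arrays of the series. J1 is a wild-type male mESC line. 3B3l cells derive from J1. Their Dnmt3a and Dnmt3b genes are knocked out, transgenes supply constitutive Dnmt3b and Dnmt3l, and Dnmt1 was left intact. Both groups were kept in serum medium with LIF, the cytokine that holds mESCs in self-renewal. J1 serum cultures grew on Mitomycin C-inactivated SNLP feeder cells and 3B3l cultures on gelatin without feeders, so line and feeders cannot be told apart in this comparison. The other lines and media were drawn on only to show where the difference was particular to serum. They were J1-2i (3 arrays) and 3B3l-2i (2 arrays), in 2i medium, which combines LIF with blockers of MEK and GSK3 signalling, and TKO-serum (2 arrays), J1-derived cells without Dnmt1, Dnmt3a and Dnmt3b.

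DNA methylation in mammals is set by the de novo enzymes Dnmt3a and Dnmt3b, helped in early embryos and germ cells by the catalytically inactive Dnmt3l, and is copied through cell division by Dnmt1 with its partner Uhrf1. In wild-type mESCs the level of methylation depends on the medium, high in serum and low in 2i. Methylation of promoters is known to keep germline, imprinted and some X-linked genes silent, and serum cultures of mESCs are known to hold a mixture of naive, primed and spontaneously differentiating cells.

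Each value below, called a level, is the log2 of the signal after division by the 75th percentile of the array. Each difference is 3B3l-serum minus J1-serum on that log2 scale, with its standard error (SE) from limma. The SE rests on the spread within all 6 groups of the series, not only the 2 compared. A gene was called higher or lower where at least 1 of its probes had a Benjamini-Hochberg adjusted p of at most 0.05 in limma and a fold change of at least 2. A level can be compared between arrays for 1 probe, not between probes. The 75th percentile of the signal of the 6 arrays lay between 1045 and 1797 intensity units, and 42.0% to 47.4% of their spots were well above background. J1-serum replicate 1, the brightest array, lay on slide 3 with both 3B3l-serum arrays, J1-serum replicate 2 on slide 2 and replicates 3 and 4 on slide 1. Over the probes tested, Pearson's r was 0.988 between the 3B3l-serum arrays, 0.968 to 0.987 between J1-serum arrays and 0.922 to 0.939 between the groups. The labels do not say that replicates were separate cultures, so p-values measure the spread between these samples, which may be technical.

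Expression differed between the lines in a large part of the transcriptome. Of 13917 genes tested, 1596 (11.5%) were higher and 1558 (11.2%) lower in 3B3l-serum, 3138 in all (22.5%), because 16 genes had probes called in both directions. Among probes without a gene name, 624 were higher and 592 lower of 9277. The values of the 2 groups overlapped in 94 of the 4766 called probes. The median difference over all probes tested was 0.15, so the typical probe lay slightly above 0.

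The slide was examined through J1-serum replicate 1 alone. With the spread taken from the other groups, since a single array has none of its own, 1590 genes (11.4%) were higher and 1381 (9.92%) lower in 3B3l-serum, or 9.71% and 8.54% when each gene was read by the probe with the highest mean. Of the 3138 genes called against all J1-serum arrays, 2437 were called in the same direction and 0 in the opposite one, with both comparisons sharing the 3B3l-serum arrays and this J1 array. J1-serum replicate 1 itself differed from the other J1-serum arrays in 248 genes, of which 71 were among those called between the lines. That count also rests on 1 array against 3, with a pooled spread. These values do not separate the slide from the culture that this array came from.

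**Figure D1:**
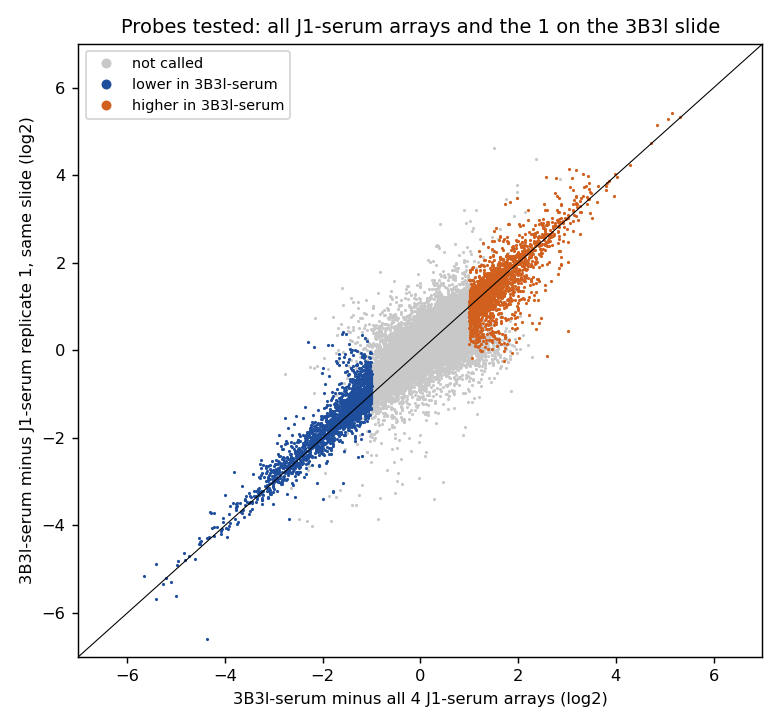
Each point is a probe, plotted by its difference against all 4 J1-serum arrays (x axis, log2) and against J1-serum replicate 1, the array on the slide of the 3B3l arrays (y axis, log2). Called probes, orange for higher and blue for lower in 3B3l-serum, follow the diagonal line of equality, with no gene called in opposite directions. Probes below the diagonal on the right were higher on J1-serum replicate 1 than on the other J1-serum arrays.

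The genes targeted in the 3B3l line were read first, as a check of the labels. Dnmt3a read 0.81, 0.59, 0.52 and 0.59 in J1-serum and -4.39 and -4.57 in 3B3l-serum, where its probe was not well above background on either array. It was thus at least 8.23-fold lower (limma adjusted p 5.9e-10). Dnmt3b, deleted at its own locus and supplied from a transgene, was split between probes. Its brightest probe read 3.08, 2.91, 2.98 and 2.88 in J1-serum and 5.62 and 5.44 in 3B3l-serum, a difference of 2.57 ± 0.12 (SE). The other Dnmt3b probes were lower by 3.45 and 3.51 on the log2 scale (differences of -3.45 ± 0.14 and -3.51 ± 0.20). Probes that lay inside and outside the deleted or the transgenic sequence were not mapped here, so no single value stands for the gene.

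Dnmt3l was saturated on both 3B3l-serum arrays, with 5.89 and 5.80 against 4.98, 4.43, 4.58 and 4.55 in J1-serum. By these levels its difference was at least 2.32-fold (limma adjusted p 2.1e-05), but it was not called under quantile normalization or on the shared slide, where it differed by 0.87. Dnmt1 was close to J1 and not called, at 2.34 on both 3B3l-serum arrays against 1.61 to 1.91. Uhrf1, the cofactor of Dnmt1, differed by 0.67 and was not called either.

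Of 11 genes for DNA methylation and its removal, each read by its brightest probe, 5 were higher and 1 was lower. Dnmt3a, the lower gene, and Dnmt3b and Dnmt3l, both among the higher, were altered in making the line. The count is therefore no result about the list. The 5 include Dnmt3b, whose other probes were lower. Besides Dnmt3b and Dnmt3l the higher genes were Tet1 (1.38 ± 0.14 SE) and Tet2 (1.27 ± 0.15), which oxidise 5-methylcytosine, and Prdm14 (1.21 ± 0.11), which represses the de novo methyltransferases in naive cells. Tet1 read 2.61 to 2.78 on the J1-serum arrays, below both 3B3l-serum arrays, of which the higher read 4.11. Tet3 and the glycosylase Tdg differed by -0.02 and -0.23. Against J1-serum replicate 1 alone, 3 of the 11 genes were higher, with Tet2 at 0.96 and Dnmt3l at 0.87.

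The largest increases among genes measured on all 6 arrays were led by Myc, the growth-promoting transcription factor. Myc read -0.71, -0.49, -0.47 and -0.55 in J1-serum and 2.83 and 3.00 in 3B3l-serum, or 11.1-fold more (3.47 ± 0.18 SE, adjusted p 2.7e-08 in limma). Both 3B3l-serum arrays lay far above all J1-serum arrays. Sp5, a transcription factor directly induced by Wnt signalling, read -2.06, -1.75, -1.54 and -1.91 against 1.44 and 1.84 (3.45 ± 0.17). Mirg, the long transcript at the distal end of the maternally expressed Dlk1-Dio3 cluster, read 0.21, -0.10, -0.32 and -0.23 against 3.51 and 3.20 (3.46 ± 0.18).

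The rest of the 12 largest increases fell in several functional classes. Secreted factors were Vgf, a neuropeptide precursor (3.44), Fgfbp1, a carrier that releases FGFs from the matrix (3.39), and Igfbp3, a carrier of insulin-like growth factors (3.33). Cell-surface and epithelial genes were Itga3, the integrin chain that binds laminins (3.02), Sfn, the epithelial 14-3-3 protein (3.13), and Igsf23 (3.23). Ddx58, the cytoplasmic RNA sensor also known as RIG-I, differed by 3.20, Calcoco2, a receptor for selective autophagy, by 3.05 and Setd1b, an H3K4 methyltransferase, by 3.27. Setd1b had the largest SE of them (0.46, limma adjusted p 8.6e-05). J1-serum replicate 1 read -0.14 and the other J1-serum arrays -0.82 to -1.05. TKO-serum, which enters the same model, read 2.53 and 0.32, with the largest spread of any group for this probe.

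**Figure D2:**
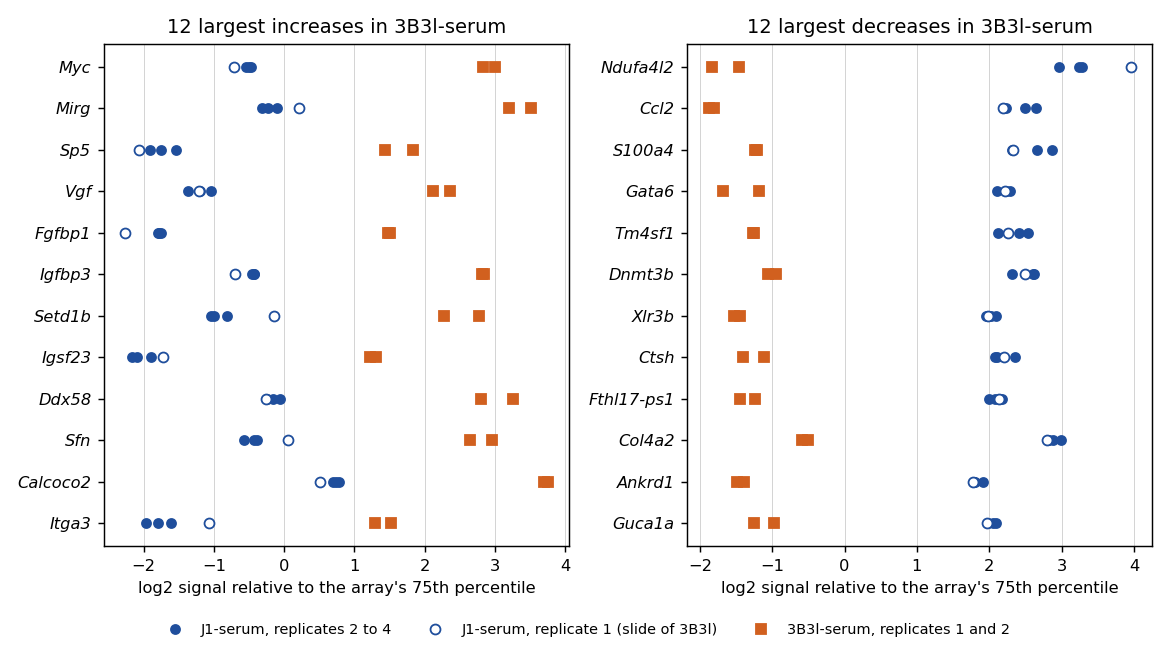
Levels (x axis, log2 signal relative to the array's 75th percentile) of the 24 named genes on each of the 6 arrays. Filled circles are J1-serum replicates 2 to 4, open circles J1-serum replicate 1, which shared the 3B3l slide, and squares the 2 3B3l-serum arrays. In every row the groups are apart, with Myc at -0.71 to -0.47 against 2.83 and 3.00 and Ndufa4l2 at 2.96 to 3.96 against -1.83 and -1.46.

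The largest decrease among genes measured on all 6 arrays belonged to Ndufa4l2, a mitochondrial protein known as a target of the hypoxia response. Ndufa4l2 read 3.96, 2.96, 3.28 and 3.24 in J1-serum and -1.83 and -1.46 in 3B3l-serum, and so differed by -5.01 ± 0.22 SE (adjusted p 5.8e-09 in limma). J1-serum replicate 1 was the highest array for this gene. Ccl2, a chemokine that draws monocytes, read 2.19, 2.50, 2.65 and 2.23 against -1.88 and -1.80 (-4.23 ± 0.16). S100a4, a calcium-binding protein abundant in fibroblasts, by its most different probe read 2.32, 2.66, 2.87 and 2.31 against -1.23 and -1.21 (-3.76 ± 0.22).

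Lineage and matrix genes followed. Gata6, the transcription factor that specifies primitive endoderm, read 2.22, 2.10, 2.24 and 2.28 in J1-serum and -1.68 and -1.18 in 3B3l-serum (-3.64 ± 0.54). Col4a2, a basement membrane collagen, differed by -3.42, the membrane protein Tm4sf1 by -3.59, the lysosomal protease Ctsh by -3.45 and the YAP target Ankrd1 by -3.26. Guca1a, a guanylate cyclase activator known from photoreceptors, differed by -3.14. From the X chromosome came Xlr3b (-3.49 ± 0.08) and the ferritin-like pseudogene Fthl17-ps1 (-3.44 ± 0.10), both with near-identical relatives that a probe may not separate. The list of 12 was completed by the third probe of Dnmt3b described above.

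Of the 13917 genes tested, some were called and well above background in only 1 of the lines, 168 in 3B3l-serum and 546 in J1-serum. These counts cannot be set against each other. The first needed a dim signal on 4 J1-serum arrays, the second on only 2 3B3l-serum arrays. Probes well above background numbered 22836 and 23087 on the 3B3l-serum arrays and 22992 to 25841 on the J1-serum arrays. For these genes a bound was set, with the dim line placed at the weakest signal that its arrays could measure. Tenm4, a teneurin of developing tissues, was at least 32.7-fold higher in 3B3l-serum, at 1.98 and 2.22 against -3.31, -3.09, -2.78 and -3.03. Foxd3, a transcription factor of pluripotent and neural crest cells, was at least 18.6-fold higher, Krtdap, a keratinocyte protein, at least 14.7-fold and Fgf5, the classical marker of epiblast exit from naive pluripotency, at least 14.4-fold. Wnt4, a Wnt ligand, and Enox1, a surface oxidase, were at least 9.64-fold and 9.18-fold higher.

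On the J1 side, Cck, the peptide hormone cholecystokinin, was at least 19.3-fold lower in 3B3l-serum, with 1.91, 1.74, 1.96 and 1.82 against -3.18 and -3.65. Dcn, the fibroblast proteoglycan decorin, was at least 14.3-fold lower, Lrrc51 at least 13.0-fold, Hkdc1, a hexokinase family member, at least 11.7-fold, Cxcl1, a neutrophil chemokine, at least 11.3-fold and Rasd1, a Ras-like protein, at least 10.4-fold. In both directions these 6 genes were chosen for the size of the bound.

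Gene lists were then read by the probe of each gene with the highest mean. By this probe 9.84% of the 13917 genes were higher and 9.41% lower, and the median difference was 0.13. A probe entered the test when it was well above background on all arrays of at least 1 of the 6 groups of the series, so a listed gene that only 1 line expressed could pass the filter through that line alone. The counts therefore describe the members measured and carry no test of the list. When each probe had to be well above background on all 16 arrays, fewer members were tested and 30 of the 47 list counts of 2 or more fell by over 1.5 times. Of 246 called probes of the named and listed genes, 18 lost their call under quantile normalization, with differences of up to 1.28 in size. With normexp background correction 38 lost it, with differences of up to 1.96, and with slide as a block 34, up to 1.95.

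**Figure D3:**
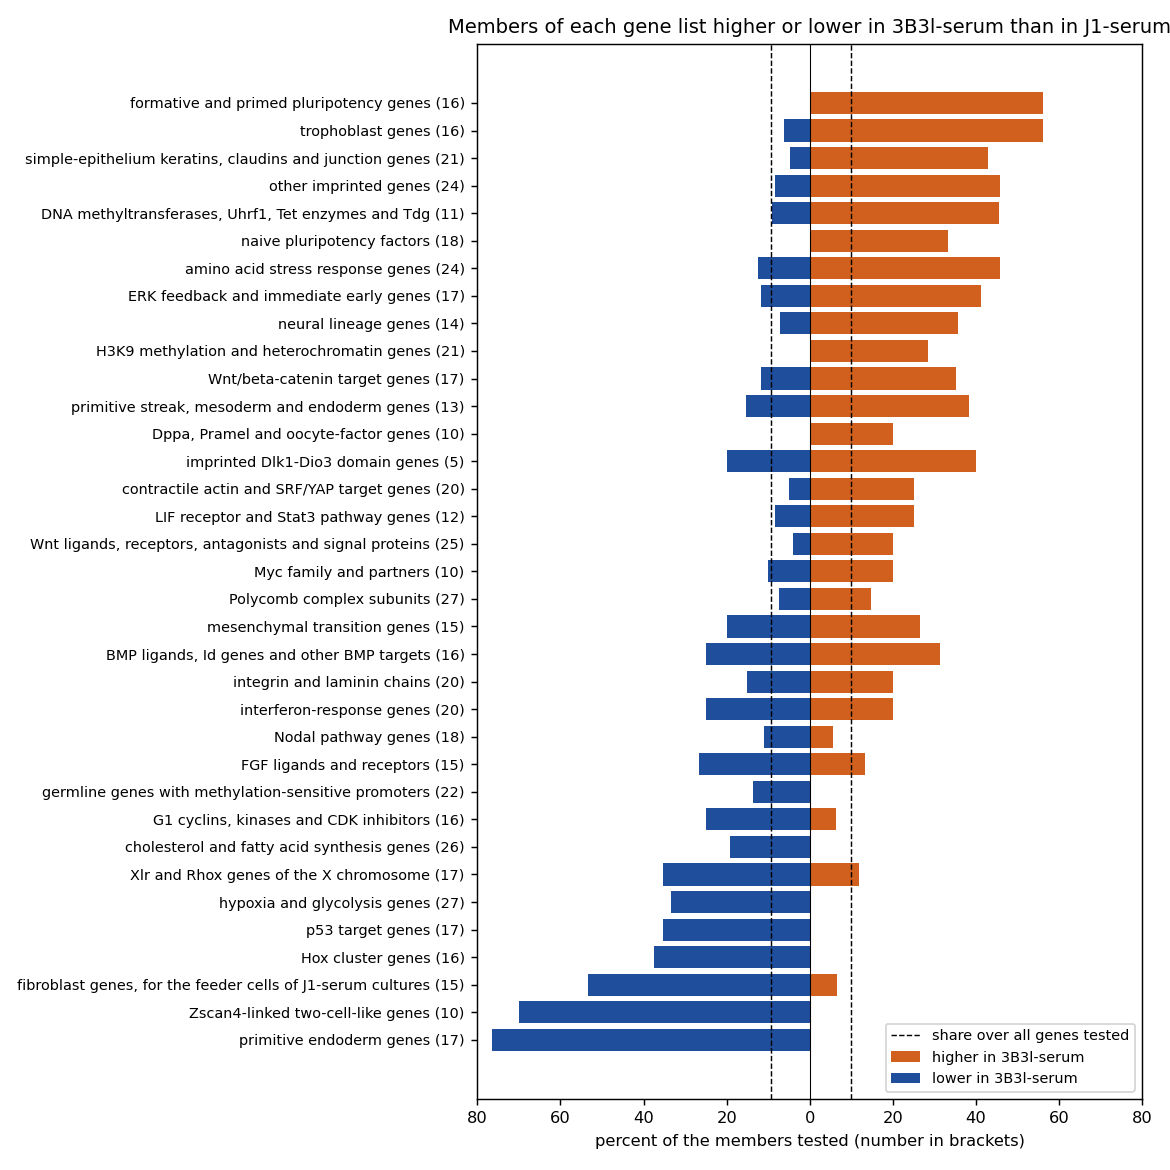
Share of the tested members of each list (number in brackets) that were higher (orange, right) or lower (blue, left) in 3B3l-serum, in percent. Dashed lines give the shares over all genes tested, 9.84% higher and 9.41% lower. Formative pluripotency and trophoblast genes stand at the top, with 9 of 16 higher each, and primitive endoderm genes at the bottom, with 13 of 17 lower.

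Part of the naive pluripotency factors were higher in 3B3l-serum, with none called lower. Of the core factors Sox2 differed by 0.46 and was not called. Pou5f1 was saturated on 2 of the 4 J1-serum arrays and on both 3B3l-serum arrays, and Nanog on 1 array of each group, so that their differences, 0.34 and 0.36 and not called, are not exact and do not show like levels. Of 18 naive factors 6 were higher and 0 lower, with a median difference of 0.73. Nr0b1, a nuclear receptor that binds Oct4, read 2.32, 2.52, 2.58 and 2.49 against 4.41 and 4.56 (2.01 ± 0.11). Klf5 (1.80), the imprint-protecting zinc finger protein Zfp57 (1.71), Sall4 (1.46), Tbx3 (1.29) and Klf2 (1.02) were also higher, though Klf2 lost its call under quantile normalization and with slide as a block, whereas Klf4 and Tfcp2l1 differed by 0.11 and 0.31. Dppa3, the oocyte factor Stella, differed by -0.20. Among 10 Dppa, Pramel and oocyte-factor genes, Dppa2 (1.94) and Khdc3 (1.24) were higher and 0 were lower.

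Of 16 formative and primed pluripotency genes tested, 9 were higher and 0 lower, with a median of 1.25. Fgf5 read -4.87, -5.11, -4.76 and -4.60 in J1-serum and 0.26 and 0.68 in 3B3l-serum. Zic2, a neuroectodermal zinc finger protein, read 1.27, 1.01, 1.25 and 1.19 against 3.86 and 3.87 (2.68 ± 0.11), and its relative Zic5 differed by 1.63. Pou3f1, the POU factor Oct6 of the epiblast, differed by 2.54, the epithelial regulator Grhl2 by 1.62, Lin28b by 1.42 and Etv4 by 1.35. Otx2, Nodal and Lef1 were not called, at -0.29, 0.31 and -0.09. Dnmt3b is among the 9 by its brightest probe alone, its other probes being lower.

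Primitive endoderm genes were in large part lower. This extraembryonic lineage secretes basement membrane and arises from the blastocyst, and a few such cells are known to appear in serum cultures. Of 19 listed genes 17 were tested, 0 were higher and 13 lower, with a median of -2.64, or -2.42 with genes not measured in 3B3l-serum set to their bound. The transcription factors Gata6, Gata4 (-1.91 ± 0.33) and Sox17 (-2.64 ± 0.24) were lower, and Foxa2, Sox7 and the adaptor Dab2 were at least 4.07-fold, 8.13-fold and 5.34-fold lower. Gata4 read 0.97, 0.42, 0.43 and 0.54 against -1.16 and -1.48.

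The surface and matrix products of that lineage moved with these factors. Cubn, an endocytic receptor, read 2.61, 2.44, 2.76 and 2.77 in J1-serum and -2.38 and -1.98 in 3B3l-serum, where 1 of the 2 arrays was well above background. Its partner Amn differed by -2.82, and the growth factor receptor Pdgfra was at least 4.75-fold lower. Col4a1 (-3.12), Col4a2 (-3.42), Lama1 (-2.63) and Lamb1 (-2.26), chains of basement membrane collagen and laminin, were lower too. Lamb1 stayed bright in both lines, at 4.99 to 5.47 against 3.07 and 2.95. Lamc1 and Cited1 were not called, at 0.16 and 0.44, nor was Sparc, which was saturated on all 4 J1-serum arrays. Every count that left out 1 array gave 13 lower members, as did slide 3 alone. When a probe had to be well above background on each of the 16 arrays, 2 lower members were left.

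Part of the fibroblast genes, listed as markers of the feeder cells, were also lower. Of 15 tested (22 listed), 1 was higher and 8 were lower, with a median of -1.26, and 1 was lower when probes had to be well above background on each of the 16 arrays. Dcn read 1.40, 1.53, 1.51 and 1.27 in J1-serum against -3.37 and -3.24. Fbln2, an extracellular matrix protein, differed by -3.07, Twist1 by -2.04 (well above background on 1 of the 2 3B3l-serum arrays), Col1a2 by -1.91, Mmp2 by -1.89, Thy1 by -1.78 and Col3a1 by -1.26, and Pdgfrb was at least 2.38-fold lower. Col1a1, the main collagen chain of fibroblasts, read 2.02, 2.39, 2.78 and 2.79 against 1.39 and 2.35, a range that overlapped, and Fn1 differed by -0.26. Twist2, well above background on 2 of the 4 J1-serum arrays, was higher (1.49). In bulk RNA, fewer cells of a type and less RNA per cell cannot be told apart.

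The summed linear signal of each list was compared over all arrays. Primitive endoderm genes summed to 160.6 to 193.1 times the array's 75th percentile in J1-serum, 83.2 and 86.4 in 3B3l-serum, 66.9 and 80.5 in TKO-serum and 53.1 to 59.9 in J1-2i. Fibroblast genes summed to 71.7 to 82.0 in J1-serum, 43.7 and 55.4 in 3B3l-serum, 33.0 and 36.6 in TKO-serum and 53.1 to 63.7 in J1-2i. J1-serum, the group on feeders, was thus the highest for both lists, and TKO-serum, which was grown without feeders, lay below or near 3B3l-serum. Of the 15 fibroblast genes 7 were higher and 1 lower in 3B3l-serum than in TKO-serum, and 6 were higher and 2 lower in 3B3l-2i than in J1-2i. Of the fibroblast members, 14 to 15 were well above background on the J1-serum arrays and 12 to 13 on the 3B3l-serum arrays. The part of the feeders in the lower genes was not tested.

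**Figure D4:**
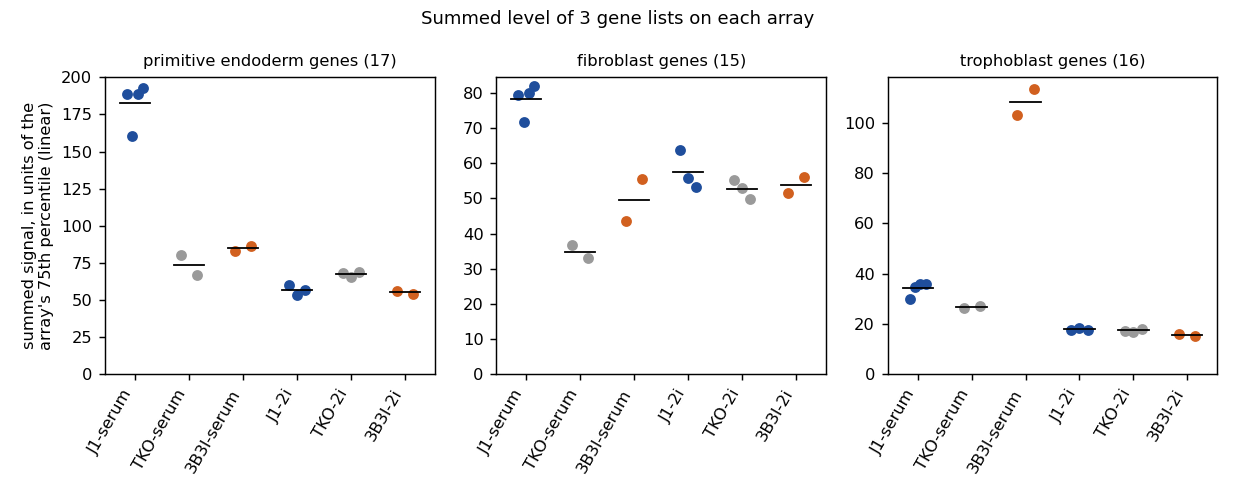
Summed linear signal (y axis, in units of the array's 75th percentile) of primitive endoderm, fibroblast and trophoblast genes on each of the 16 arrays, by group, with a line at the group mean. J1-serum is the highest group for the first and second lists (160.6 to 193.1 and 71.7 to 82.0), and 3B3l-serum for the third (103.0 and 113.3 against 29.8 to 36.0 in J1-serum). Krt8 and Krt18 make up most of the third sum in 3B3l-serum.

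Part of the trophoblast and epithelial genes were higher. Trophoblast is the other extraembryonic lineage of the blastocyst. Of 16 trophoblast genes 9 were higher and 1 lower, with a median of 1.33, and 4 were higher among probes well above background on each of the 16 arrays. Transcription factors of the lineage were among them, with Hand1 and Gata3 at least 2.97-fold and 4.48-fold higher and Cdx2, well above background on 1 of the 4 J1-serum arrays, at -2.63, -2.88, -2.94 and -2.54 against -0.44 and -0.56. Tfap2c differed by 1.04. Plac1, a placental surface protein well above background on 1 of the 4 J1-serum arrays, differed by 1.87 and Rhox6 by 1.63, while Cdh3 was lower (-1.23). Eomes and Ascl2 were not called, at 0.65 and 0.91. The summed signal of the list was 103.0 and 113.3 in 3B3l-serum against 29.8 to 36.0 in J1-serum and 26.4 and 27.2 in TKO-serum. Most of the sum in 3B3l-serum came from the keratins Krt8 and Krt18, which are also on the epithelial list. It therefore does not stand for the other members.

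Simple epithelia and trophoblast share keratins. Krt8 read 2.77, 2.88, 2.93 and 2.99 against 5.21 and 5.35 (2.39 ± 0.11), and Krt18 read 3.23, 3.87, 3.91 and 3.87 against 5.51 and 5.72 (1.90 ± 0.19). Of 21 keratin, claudin and junction genes 9 were higher and 1 lower, with a median of 0.84, and under that stricter filter 3 were higher. They included Krt7 (1.67), Krt19 (1.53), and the desmosomal genes Dsp (2.28), Jup (at least 3.82-fold) and Dsc2 (at least 3.18-fold). Cdh1 and Epcam, the adhesion molecules that all mESCs carry, differed by 0.02 and -0.52, and Ocln was lower (-1.02).

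Embryonic lineage genes were mixed. Of 14 neural genes 5 were higher and 1 lower (median 0.78), with Nefl at 2.00, Zic1 at 1.98, Nes at 1.79 and Sox21 at 1.52, Pax6 at least 3.08-fold higher and the Notch target Hes5 at least 1.36-fold lower. Nefl, the light neurofilament, read 1.27, 0.65, 0.89 and 0.85 against 2.99 and 2.83. Of 13 mesendoderm genes 5 were higher and 2 lower (median 0.50), and 1 and 0 among probes well above background on each of the 16 arrays. Cdx1, a caudal homeobox factor induced by Wnt, read -1.49, -1.52, -1.82 and -1.88 against 0.05 and 0.26 (1.83 ± 0.22), and Wnt3 was at least 2.35-fold higher. Brachyury (T) was called higher although its probe was not well above background in either group, so no fold is given. The lower members were Foxa2 and Sox17, which are also on the primitive endoderm list.

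Wnt ligands and targets were more often higher than lower. In this pathway, ligands such as Wnt3 and Wnt4 stabilise beta-catenin, which drives targets through Tcf factors. Of 25 ligands, receptors and signal proteins 5 were higher and 1 lower (median 0.57). Wnt4, Wnt3 and Wnt7b were measured in 3B3l-serum only and were at least 9.64-fold, 2.35-fold and 3.06-fold higher, the receptor Fzd10 differed by 1.25 and Tcf7l1, a repressor of the pathway, by 1.84. Wnt11 was at least 2.21-fold lower, and Ctnnb1, beta-catenin itself, differed by 0.18. Of 17 targets 6 were higher and 2 lower (median 0.65), including Sp8 and T, which were not well above background in either group, and 3 were higher under the filter on all 16 arrays. Axin2, Lef1 and Ccnd1 were not called, at 0.41, -0.09 and 0.83, and Tcf7 (-1.03) and Nkd1 (at least 2.39-fold) were lower. The lower count was 1 on the shared slide and with normexp background correction.

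The promoter of Sp5, the most different Wnt target after Myc, is shown because it holds the core of the Tcf/Lef motif. The letters CTTTGA were searched on both strands of 300-base windows that span gene starts and lie mostly upstream of them, from RefSeq (GRCm38.p6). They occurred in 16% of 32851 promoters, and in 3 of the 6 higher and 3 of the 9 uncalled targets, with 12 of 17 targets having a promoter in the table. A target was counted when any of its windows matched, so its share is not like that of single promoters. The Sp5 window is chr2:70474673-70474972 on the plus strand, with the matches in capitals.
Sp5: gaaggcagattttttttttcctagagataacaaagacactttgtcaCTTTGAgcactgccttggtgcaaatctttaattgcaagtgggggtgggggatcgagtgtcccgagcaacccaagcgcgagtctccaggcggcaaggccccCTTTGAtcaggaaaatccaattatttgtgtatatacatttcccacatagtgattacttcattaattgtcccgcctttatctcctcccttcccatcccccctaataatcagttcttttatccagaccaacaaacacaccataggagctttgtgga

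The BMP and ERK branches had members on both sides. BMPs act through Smads to induce the Id genes, which support self-renewal in serum. Of 16 genes of this pathway 5 were higher and 4 lower (median 0.66). Bmp4 read 2.19, 2.53, 2.46 and 2.36 in J1-serum and 4.77 and 4.48 in 3B3l-serum (2.24 ± 0.15), and Bmp8b, well above background on 2 of the 4 J1-serum arrays, differed by 2.50. The targets Id3, Id2 and Id1 were higher by 2.61, 1.58 and 1.47. Bmp7 (-2.12), Bmp2 (at least 2.07-fold), the antagonist Grem1 (at least 1.96-fold) and Gata2 (at least 2.04-fold) were lower.

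ERK feedback genes report on signalling from FGF receptors. Of 17 tested 7 were higher and 2 lower (median 0.88). Dusp5, an ERK phosphatase, read -1.35, -1.79, -1.81 and -1.84 against 1.01 and 1.22 (2.81 ± 0.16). Etv1 differed by 2.62, Spry2 by 2.08, Phlda1 by 1.77, Spred1 by 1.61, Dusp4 by 1.38 and Etv4 by 1.35. Dusp6 and Spry4 were not called, at 0.48 and 0.76, and the immediate early genes Fos and Ier3 were lower (-1.07 and -1.86). Against J1-serum replicate 1 alone 5 were higher, and without 3B3l-serum replicate 2, 4 were lower.

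Ligands and receptors of the FGF family, listed with the carrier Fgfbp1, were lower more often. Of 15 genes 2 were higher (Fgf5 and Fgfbp1) and 4 lower, with a median of -0.71. Among probes well above background on each of the 16 arrays 0 were higher and 0 lower. Fgf10, Fgf3 and Fgf1 were at least 2.29-fold, 2.88-fold and 2.19-fold lower and Fgfr4, well above background on 1 of the 2 3B3l-serum arrays, differed by -1.06. Fgf4, the main FGF of mESCs, differed by -0.81 and Fgfr1 by -0.14, and neither was called.

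Calls among Nodal pathway genes were near the shares over all genes, 9.84% higher and 9.41% lower. Of 18 1 was higher, Gdf3 (1.18), which lost its call under quantile normalization and with the authors' log2 values. Cfc1 (at least 1.39-fold) was 1 of the 2 lower, a count that was 1 on the shared slide and 0 under the filter on all 16 arrays. Lefty1, Lefty2 and Tdgf1 differed by -0.46, -0.05 and 0.10. Of 12 LIF and Stat3 genes Gbx2 (2.27), Socs2 (1.27) and Bcl3 (1.17) were higher and Socs3, the feedback inhibitor of Stat3, was lower (-1.05). Socs3 against J1-serum replicate 1 alone differed by -0.86.

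Genes of the hypoxia response were lower in a subset. Under low oxygen the factor Hif1 binds motifs with the core ACGTG, and the prolyl hydroxylases Egln1 and Egln3 mark it for removal. Of 27 hypoxia and glycolysis genes 0 were higher and 9 lower, with a median of -0.17. Ndufa4l2 led this list, followed by the collagen prolyl hydroxylases P4ha1 (at least 8.34-fold lower) and P4ha2. P4ha2 read 3.91, 3.58, 3.67 and 3.63 in J1-serum against 0.54 and 0.73 (-3.06 ± 0.13), and Egln3 read 2.07, 1.85, 1.95 and 1.84 against -0.66 and -0.50 (-2.50 ± 0.14).

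Egln1 and the carbonic anhydrase Car9 were at least 2.93-fold and 1.62-fold lower, and Aldoc (-2.02), Ankrd37 (-1.75) and Pfkp (-1.10) completed the 9. Pfkp and Aldoc are glycolytic enzymes, while other enzymes of glycolysis on the list were not called, with Hk2 at 0.84. Aldoa, Ldha and Pgk1 were saturated on all 6 arrays and Tpi1 on the 4 J1-serum arrays, so no fold is given for them. Vegfa differed by -0.63 and Bnip3 by -0.88. P4ha1 and P4ha2 hydroxylate collagen, and the summed primitive endoderm and fibroblast genes, which include collagens, were lower in the same arrays. Their part in this result was not tested.

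Promoters of 3 lower members are printed to show the ACGTG core, in capitals, on either strand. Of the 27 members 25 had a promoter in the RefSeq table (GRCm38.p6). The core stood in 7 of the 9 lower and 12 of the 18 uncalled members, and in 19.6% of all 32851 promoters. A member was counted when any of its windows held the core, so these shares are not like that of single promoters. The core was present in called and uncalled members alike. P4ha1 is chr10:59323046-59323345 (plus strand), P4ha2 chr11:54100674-54100973 (plus strand) and Egln3 chr12:54203825-54204124 (minus strand).
P4ha1: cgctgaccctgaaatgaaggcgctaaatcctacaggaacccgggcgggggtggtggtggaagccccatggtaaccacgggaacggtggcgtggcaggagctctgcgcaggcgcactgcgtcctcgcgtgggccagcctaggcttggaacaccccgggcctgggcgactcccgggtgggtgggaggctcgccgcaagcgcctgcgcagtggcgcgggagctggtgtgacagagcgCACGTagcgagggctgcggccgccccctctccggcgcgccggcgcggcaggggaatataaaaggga
P4ha2: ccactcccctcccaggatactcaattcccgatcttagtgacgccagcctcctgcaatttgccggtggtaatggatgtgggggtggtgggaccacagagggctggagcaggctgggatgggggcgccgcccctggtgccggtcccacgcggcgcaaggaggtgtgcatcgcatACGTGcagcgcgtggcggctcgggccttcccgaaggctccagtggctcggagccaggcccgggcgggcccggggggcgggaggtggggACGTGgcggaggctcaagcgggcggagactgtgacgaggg
Egln3: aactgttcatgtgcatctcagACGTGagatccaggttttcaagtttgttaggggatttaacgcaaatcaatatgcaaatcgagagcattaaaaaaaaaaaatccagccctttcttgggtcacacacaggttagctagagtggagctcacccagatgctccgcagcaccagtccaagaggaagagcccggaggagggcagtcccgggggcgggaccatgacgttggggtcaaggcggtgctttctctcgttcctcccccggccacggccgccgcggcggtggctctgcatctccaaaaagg

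Genes of the amino acid stress response were higher more often than lower. When amino acids are short or the endoplasmic reticulum is stressed, Atf4 is translated and induces transporters and synthetases through sites that read TGATGNAA. Of 24 tested 11 were higher and 3 lower, with a median of 0.97. Slc7a3, a transporter of cationic amino acids, read 2.02, 2.25, 2.46 and 2.20 against 4.80 and 4.78 (2.56 ± 0.16). Cth, which makes cysteine, differed by 2.43, Chac1, which degrades glutathione, by 2.11, Atf5 by 1.88, Aldh18a1 by 1.33, Atf4 by 1.28 and Trib3 by 1.14. Asns, asparagine synthetase, was saturated on both 3B3l-serum arrays and was at least 2.21-fold higher.

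Ddit3, the stress-induced factor CHOP, ran the other way, at 3.10, 2.86, 3.02 and 3.04 against 0.46 and 0.14 (-2.70 ± 0.23). Ddit4, saturated on 2 of the 4 J1-serum arrays, was at least 2.38-fold lower, and Vldlr differed by -1.24. Serine synthesis genes were not called, with Phgdh at 0.56, Psat1 at 0.66 and Psph at 0.66. Sesn2 differed by -1.13 and was not called (limma adjusted p 0.24). The count of higher members was sensitive to scale, with 6 under quantile normalization, 6 with the authors' log2 values and 7 against J1-serum replicate 1 alone.

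The motif TGATGNAA occurred on either strand in 3.97% of all 32851 promoters. It stood in 3 of the 11 higher members (Asns, Chac1 and Trib3), 1 of the 3 lower and 1 of the 10 uncalled, with 21 of 24 in the table. A member was counted when any of its windows matched, so its share is not like that of single promoters. The windows of Chac1, chr2:119350992-119351291 (plus strand), and Trib3, chr2:152344011-152344310 (minus strand), show the match in capitals, which on the printed strand reads in reverse complement.
Chac1: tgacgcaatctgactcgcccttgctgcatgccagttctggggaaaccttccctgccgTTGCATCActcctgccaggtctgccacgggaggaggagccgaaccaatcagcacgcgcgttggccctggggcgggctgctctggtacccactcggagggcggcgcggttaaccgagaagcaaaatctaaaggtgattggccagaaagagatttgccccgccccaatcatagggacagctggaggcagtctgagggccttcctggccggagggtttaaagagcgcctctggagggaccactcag
Trib3: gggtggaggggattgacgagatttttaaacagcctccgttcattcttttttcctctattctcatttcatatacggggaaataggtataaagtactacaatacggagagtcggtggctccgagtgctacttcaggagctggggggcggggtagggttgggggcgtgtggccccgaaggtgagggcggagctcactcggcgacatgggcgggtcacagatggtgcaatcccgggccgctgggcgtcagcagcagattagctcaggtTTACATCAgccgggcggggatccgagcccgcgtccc

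Of 26 genes of sterol and fatty acid synthesis 0 were higher and 5 lower, with a median of -0.39, and 21 were not called. Stard4 (-1.74), Insig1 (-1.57), Scd1 (-1.09), Mvd (-1.08) and Fdft1 (-1.01) were called. With 1 array left out the lower count ran from 3 (without 3B3l-serum replicate 2) to 7. Stard4 read 1.37 on J1-serum replicate 1 and 2.32 to 2.43 on the other J1-serum arrays, so that its difference was -0.98 on the shared slide.

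Targets of p53 and brakes of the cell cycle were lower in part. Of 17 p53 targets 0 were higher and 6 lower, with a median of -0.65. The death receptor Fas was at least 4.01-fold lower, and Pmaip1, the pro-apoptotic protein Noxa, read 2.94, 2.81, 2.54 and 2.86 against 0.45 and 0.52 (-2.31 ± 0.14). Btg2 (-1.63), Gdf15 (-1.44), Sesn1 (-1.21) and Trp53inp1 (-1.15) followed. Mdm2 and Cdkn1a, widely used readouts of p53, were not called, at -0.19 and -0.63.

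Of 16 regulators of G1 phase 1 was higher and 4 were lower, with a median of -0.36. Rb1, the retinoblastoma protein, read 1.46, 1.08, 1.02 and 1.37 against -0.58 on both 3B3l-serum arrays (-1.81 ± 0.15). Its relative Rbl2 was at least 4.87-fold lower, the CDK inhibitor Cdkn2c at least 2.28-fold and Cdkn1c differed by -1.36. Ccne1, cyclin E, was higher (1.19), a call lost under quantile normalization and with the authors' log2 values. Of 10 Myc family members Myc and Mnt (1.18) were higher and Mxd4, an antagonist of Myc, was lower (-1.07), with Mycn at 0.98 and Max at 0.74 not called. Without J1-serum replicate 1, 4 of these members were higher, and on the shared slide Myc alone was. Mxd4 lost its call with normexp background correction, so that 0 were lower, as was so without 3B3l-serum replicate 1. Of the G1 regulators 1 was lower when probes had to be well above background on each of the 16 arrays.

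Imprinted genes, expressed from 1 parental allele under control of DNA methylation, were higher more often than lower. Of 24 outside the Dlk1-Dio3 domain 11 were higher and 2 lower, with a median of 0.95. Snrpn read 3.46, 3.20, 3.31 and 3.29 against 5.67 and 5.51 (2.27 ± 0.11) and Peg3 0.62, -0.33, -0.20 and -0.25 against 2.36 and 2.08 (2.26 ± 0.26). The paternally expressed Magel2 (1.95), Mest (1.54), Nnat (1.49), Impact (1.46), Plagl1 (1.27), Ndn (1.03) and Peg12 (1.03) were higher too, and the antisense transcript Kcnq1ot1 was at least 3.96-fold higher. Magel2 lost its call with slide as a block. Igf2 was called (1.46), but J1-serum replicate 1 read -1.26, within the 3B3l-serum values of -1.32 and -0.81, and on the shared slide the difference was 0.19.

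The lower imprinted genes were Dcn and Cdkn1c, both maternally expressed. Igf2r, Phlda2 and Peg10 were not called, at -0.82, -0.85 and 1.00. Against J1-serum replicate 1 alone 8 were higher and 2 lower. In the Dlk1-Dio3 domain the maternally expressed Mirg (3.46) and Meg3 (1.30) were higher, Begain was at least 1.32-fold lower and Dlk1 differed by -0.82, while Dio3 was well above background on 1 of the 6 arrays. The counts of the domain, 2 higher and 1 lower of 5 with a median of -0.03, were 1 and 2 on the shared slide, with a median of -1.10, and 1 and 3 when slide was fitted as a block. Meg3 read 3.58 on J1-serum replicate 1 and 2.97 to 3.04 on the others, and its difference on the shared slide was 0.86.

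Germline genes, whose promoters are known to be silenced by methylation, were mainly not called. Of 22, 0 were higher and 3 lower, near the 9.41% of all genes that were lower, and the median of -0.32 was 0.02 on the shared slide. Sycp3, a protein of the meiotic chromosome axis, read 2.98, 2.96, 2.96 and 3.02 against 0.80 and 0.38 (-2.39 ± 0.16). Stra8, the retinoic acid-induced meiosis factor, differed by -1.61 and Tex101 by -1.01. Dazl (-0.72), Mael (-0.96) and Ddx4 (0.32) were not called.

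Several Xlr genes, a multicopy family on the X chromosome, were lower. Of 17 Xlr and Rhox genes 6 were lower, all of them Xlr, and 2 were higher, both Rhox. Xlr3a, Xlr5c, Xlr5b and Xlr4a were at least 6.06-fold, 3.48-fold, 2.93-fold and 3.46-fold lower, and Xlr3b and Xlr4b differed by -2.97 and -1.39 by their brightest probes. Rhox5, a homeobox gene known to be methylation-sensitive, differed by 1.24 and Rhox6 by 1.63. Rhox9, Rhox13 and Rhox4a were not called, at 0.60, 0.84 and 0.49, nor were Xlr and Xlr5a, at -0.23 and -0.58. When probes had to be well above background on each of the 16 arrays 2 members were lower, and with the authors' log2 values 0 were, as the 6 have no value there.

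Zscan4-linked genes mark a small two-cell-like fraction of mESC cultures. Of 10 tested (20 listed) 0 were higher and 7 lower, with a median of -1.66. Zscan4f read 3.95, 3.93, 4.25 and 4.04 against 1.45 and 1.71 (-2.47 ± 0.15), Gm8300 differed by -2.18, Gm4340 by -1.81, Tmem92 by -1.51 and Zscan4a by -1.01, and Tcstv1 and Tcstv3 were at least 4.88-fold and 5.04-fold lower. Zscan4c differed by -0.76 and was not called. The copies of this cluster are near identical, so a probe may read several of them. Under the filter on all 16 arrays 2 were lower. With the authors' log2 values in place of the scanner signals, 4 of the members were lower, all that have a value there of the 7.

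Of 21 genes of H3K9 methylation and heterochromatin 6 were higher and 0 lower (median 0.59), namely Zfp57, the corepressor Trim28 (1.33), the H3K9 methyltransferase Setdb1 (1.12), the HUSH subunit Tasor (1.12), Cbx5 (1.07) and Daxx (1.06). Trim28 read 4.71, 4.49, 4.37 and 4.47 against 5.92 and 5.76. With normexp background correction 3 of the list were higher. Of 27 Polycomb subunits 4 were higher, Epop (1.84), Jarid2 (1.53), Bcor (1.48) and Eed, which was saturated on both 3B3l-serum arrays and at least 2.32-fold higher, and Phf1 (at least 1.69-fold) and Ezh1 (-1.07) were lower. With normexp background correction 0 Polycomb members were lower. Ezh2 and Suz12, which form the core of PRC2 together with Eed, differed by -0.08 and 0.23.

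Hox genes were near the limit of detection. Of 37 listed 16 were tested, and 0 were higher and 6 lower. Hoxa7 and Hoxc13 were at least 1.29-fold and 1.30-fold lower, Hoxb4 and Hoxb13 were well above background on 3 and 1 of the J1-serum arrays, and Hoxc6 and Hoxd4 were not well above background on any of the 6. With normexp background correction 1 was lower.

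Contractile and adhesion genes were mixed. Of 20 contractile genes 5 were higher (Acta1 1.58, Tpm1 1.35, Cnn2 1.31, Thbs1 1.03 and Vcl 1.02) and Ankrd1 was lower. The higher count fell to 3 on the shared slide, under quantile normalization and with J1-serum replicate 2 left out. Of 20 integrin and laminin chains 4 were higher, including Itga3, Itga8 (at least 6.17-fold) and Itga9 (at least 4.06-fold), and 3 were lower, Lama1, Lamb1 and Nid1 (-1.06).

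Of 15 mesenchymal transition genes 4 were higher, with Tgfb2 at 2.62 and S100a6 at 1.54, and 3 were lower, S100a4, Twist1 and Cdh11 (at least 1.71-fold). The fourth, Tgfb1, was called (1.21), but J1-serum replicate 1 read -1.29 beside -1.25 and -1.15 in 3B3l-serum, and the difference on the shared slide was 0.09. Of 20 interferon-response genes 4 were higher, Ddx58, Oas1a (1.38), Psmb8 (1.01) and Ifitm3 (1.01), and 5 lower, including B2m (-1.60), the light chain of class I antigens, and Stat2 (-1.52). That higher count was 2 on the shared slide, and also 2 with J1-serum replicate 4 or 3B3l-serum replicate 1 left out. Isg15 and Irf9 differed by -0.03 and 0.07.

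Whether the serum difference held in another medium was asked with 3B3l-2i and J1-2i, which share no array with the serum comparison. Both 3B3l-2i arrays lay on slide 3 and the J1-2i arrays on slides 1 and 2, so that the term for slide 3 can be fitted only through J1-serum replicate 1, the sole J1 array on slide 3. With slide as a block 1833 genes were called in 2i, against 2343 without it, and 2825 between media. The methods name feeders for J1 in serum alone. In 2i 1269 genes (9.12%) were higher and 1081 (7.77%) lower in 3B3l, or 7.8% and 6.55% by the probe with the highest mean, which the list counts use. Of the genes higher in serum 371 were also higher in 2i, 23.2% of the serum list and 29.2% of the 2i list. Of those lower in serum 461 were also lower in 2i, 29.6% and 42.6% of the lists. Opposite calls were fewer, with 76 genes higher in serum and lower in 2i (4.76% of the serum list) and 118 lower in serum and higher in 2i (7.57%). Tested directly, the serum and 2i differences were not the same in 2762 genes (19.8%). The serum difference was the higher one in 9.87% of genes and the lower one in 10.1%, or 8.57% and 8.6% by the probe with the highest mean.

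Genes of both media included Myc, Sp5 and Mirg on the higher side. Myc differed by 3.45 in 2i and Sp5 by 3.23, and for neither was a difference between media called (limma adjusted p 0.96 and 0.56). Etv1 differed by 2.62 in serum and 2.67 in 2i, Bmp4 by 2.24 and 2.08 and Id3 by 2.61 and 2.75. On the lower side Ddit3 differed by -2.70 in serum and -1.99 in 2i, and Xlr4b by -1.39 and -3.73. Of the 17 Xlr and Rhox genes 4 were higher and 9 lower in 2i.

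Other differences were unlike in the media. Of the 17 primitive endoderm genes 6 to 7 were well above background on each 2i array of J1 and 3B3l, so most have no 2i difference. Among those measured in both lines Lama1 differed by -1.25 in 2i and Lamb1 by 0.23, each with a called difference between the media, and Cited1 by 1.19. Gata6, Cubn, Col4a1 and Col4a2 were not well above background on any J1-2i or 3B3l-2i array, so no 2i fold is given for them. Fgf5 was likewise not well above background in 2i in either line. Zic2 differed by 0.12 in 2i, Krt8 by 0.04 and Slc7a3 by -0.34, all with a called difference between media. Dppa3 differed by -0.20 in serum, whereas in 2i its mean level was 1.43 in J1 and -4.09 in 3B3l, where it was not well above background.

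In some lists the direction turned. Zscan4-linked genes had 7 lower members in serum and 6 higher in 2i, with Zscan4a at -1.01 and 3.19, and Zscan4f at -2.47 and 2.04. Stra8 differed by -1.61 in serum and 4.24 in 2i. Of the 21 epithelial genes 9 were higher in serum, and 0 were higher and 8 lower in 2i, with Dsp at 2.28 in serum and -1.36 in 2i. Krt7 and Grhl2 had mean levels of -1.40 and -1.43 in J1-2i and were not well above background in 3B3l-2i. Each of these genes had a called difference between media.

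**Figure D5:**
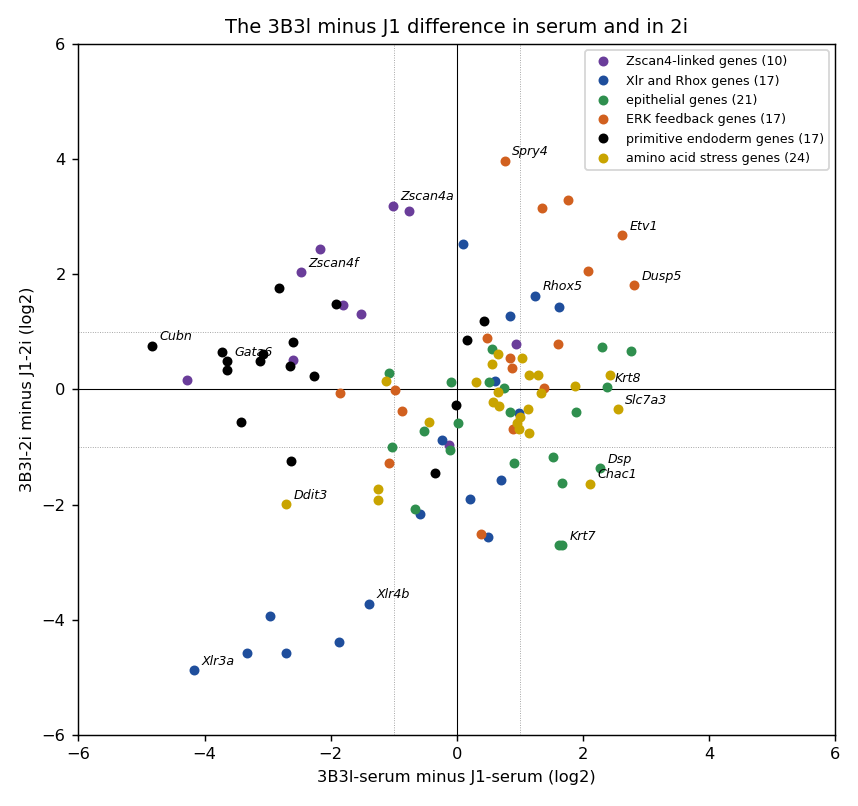
Members of 6 lists, plotted by the 3B3l minus J1 difference in serum (x axis, log2) and in 2i (y axis, log2), with dotted lines at 2-fold. Differences are as fitted, also for genes not well above background in a group. Xlr genes lie at the lower left (Xlr4b at -1.39 and -3.73), Zscan4-linked genes at the upper left (Zscan4f at -2.47 and 2.04), several epithelial genes at the lower right (Dsp at 2.28 and -1.36) and ERK feedback genes at the upper right (Etv1 at 2.62 and 2.67).

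TKO-serum, another feeder-free line of J1 origin in the same medium, was set beside J1-serum, with the 3B3l-serum arrays shared by both comparisons. The TKO-serum arrays lay on slide 1, and with slide as a block, which again rests on J1-serum replicate 1, 1377 genes were called in place of 1741. Against TKO-serum 830 genes (5.96%) were higher and 916 (6.58%) lower in 3B3l-serum, or 5.18% and 5.48% by the probe with the highest mean. Of the 17 primitive endoderm genes 0 were higher and 1 was lower than in TKO-serum. Of the genes with the largest decreases against J1, Ndufa4l2 was also lower than in TKO-serum (-1.92), and Ccl2 was called higher, with TKO-serum not well above background. Differences that were not called were -0.42 for Gata6, 0.36 for Col4a2, -0.13 for Ankrd1 and -0.43 for S100a4. Zic2 (-0.10), Foxd3 (0.14), Tenm4 (0.66), Mirg (0.42) and Snrpn (0.75) were likewise not called between 3B3l and TKO.

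Of the 17 Xlr and Rhox genes 0 were higher and 10 lower than in TKO-serum. Xlr3b by its most different probe had a mean level of 3.39 in TKO-serum, read 1.95 to 2.09 in J1-serum and -1.44 and -1.53 in 3B3l-serum, and was lower than TKO-serum by 4.88 on the log2 scale. Fthl17-ps1 was lower by 4.03 (a mean level of 2.69 in TKO-serum). Krt8 (3.66), Krt18 (3.13), Vgf (3.42), Itga3 (3.59) and Bmp4 (2.15) were higher in 3B3l-serum than in TKO-serum, as they were against J1-serum.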

How the data were processed

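RNA was labelled with Cy3 and hybridised to one-colour Agilent mouse arrays. Intensities were deposited by the authors as Agilent Feature Extraction 11.5.1.1 output, of which the background-subtracted processed signal was used with the flags for saturation and for signal well above background. The authors' deposited table of log2 values, 30170 probes with column medians of 8.28 to 8.43, served as an alternative. Its normalization is not given in the sources used here, and each of its 16 columns correlated best with an array of its own group, but only 3 with the array of their own replicate number. Replicate numbers here are those of the scanner files.

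Control spots were left out, log2 of the processed signal was taken, the log2 75th percentile of each array was subtracted, and spots of 1 probe were averaged. Probes were tested when well above background on all arrays of at least 1 group, which kept 27126 of 55681 probes, 17849 of them with a gene symbol and 9277 without. A value was missing on at least 1 of the 6 arrays for 791 tested probes. One model over all 16 arrays was fitted with limma 3.58.1 in R 4.3.3 (lmFit and eBayes), with Benjamini-Hochberg adjustment over all probes. Calls needed 2-fold change and an adjusted p no higher than 0.05. The code was tested on simulated data.

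The serum comparison, the same comparison in 2i, their difference and 3B3l-serum against TKO-serum were contrasts of that model. The 12 genes named in each direction were called, well above background and unsaturated on all 6 arrays, without overlap, and at least 1 log2 unit apart on slide 3, each by its most different probe. The 6 genes with the largest bounds in each direction, all Dnmt probes and members of 35 lists by their brightest probe were also named. A bound set the dim group at the higher of its own signal and the lowest signal well above background on each array. The comparison and the lists were chosen with earlier results of these data known. Alternatives changed the background correction, scaling, filter, fold limit, arrays fitted, slide or replicate number as a block, and source of values, or left out arrays. The number of arrays limits the precision. Some members of the lists are counted but not reported here by name.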

Additional observations from a re-analysis of the deposited data

Results flagged for a closer look

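In J1-serum, replicate 1 lay far from the other arrays in Fgfbp1 (-2.26, with the nearest array at -1.79) and in Igfbp3 (-0.70, with the nearest at -0.46). By chance about 1 in 20 groups would be picked out this way.

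The 3B3l minus J1 difference was not the same in serum and in 2i for 34 of the 41 named probes checked, tested as an interaction in limma, against 19.8% of all genes. Most were named for a large serum difference, which is part of the interaction, so this count is no support. Values are the serum difference minus the 2i difference on the log2 scale, and for genes not well above background in a group they depend on dim signal. Among higher genes they were 1.44 for Mirg, 2.74 for Vgf, 2.2 for Fgfbp1, 2.46 for Igfbp3, 3.05 for Igsf23, 2.69 for Ddx58, 2.66 for Sfn, 1.1 for Calcoco2 and 1.22 for Itga3. Genes measured in 3B3l-serum only gave 4.92 for Tenm4, 3.59 for Foxd3, 5.96 for Krtdap, 4.63 for Fgf5, 4.12 for Wnt4 and 2.35 for Enox1.

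Among lower genes the values were -3.04 for Ndufa4l2, -4.36 for Ccl2, -3.87 for S100a4, -4.13 for Gata6, -3.24 for Tm4sf1, -2.66 for Ctsh, -1.58 for Fthl17-ps1, -2.85 for Col4a2, -3.82 for Ankrd1 and -4.1 for Guca1a. Genes measured in J1-serum only gave -4.74 for Cck, -3.04 for Dcn, -2.9 for Lrrc51, -7.2 for Hkdc1, -6.01 for Cxcl1 and -4.44 for Rasd1. The methyltransferase genes gave -1.49 for Dnmt3a, -2.63 for the brightest Dnmt3b probe and -2.43 for Dnmt3l, while the other Dnmt3b probes gave -0.69 and -0.41 and were not called. Dnmt3l was saturated on both 3B3l-serum arrays, so its serum difference is a lower bound and its value here is not exact.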

How the results depend on the processing

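The serum count of 3138 called genes was 3014 with the replicate number as a block (1551 higher and 1479 lower), and the block moved no count of calls by over 1.5 times. The labels share 2 numbers between the groups, and same-numbered arrays deviated together with r = 0.21 in serum and -0.14 in 2i, so the numbers were not taken to pair cultures.

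Leaving out 1 array gave 3043 (without 3B3l-serum replicate 1) to 3406 (without J1-serum replicate 1) called genes in serum, 1552 to 1747 higher and 1437 to 1681 lower, 2638 to 2777 for the difference between media, 2074 to 2421 in 2i and 1579 to 1776 against TKO-serum. Requiring signal well above background on all 16 arrays left fewer genes to test, and 1718 were called in serum (639 lower), 1042 in 2i, 1394 between media and 710 against TKO-serum. With no fold limit there were 7955 (4673 higher and 3396 lower), 6727, 4944 and 5085. At 4-fold there were 670 (259 higher and 414 lower), 540, 813 and 412. The share of calls that were higher was 50.6%, 62.9% under the filter on all 16 arrays and 38.5% at 4-fold. The median difference over all probes was 0.15, and 0.04 after quantile normalization. Under these alternatives no called difference of a named gene changed sign, while genes not called and near 0 did, with Klf4, Cdh1, Ctnnb1 and Lamc1 above 0 as reported and below 0 after quantile normalization. Dim probes limit what could be measured in 1 line only.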
